A study of Sus scrofa with 6 samples.

Results

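The resident-type macrophage genes are 9 genes that mark long-lived tissue macrophages in many organs, and their expression was followed in the abdominal aorta of Wuzhishan miniature pigs. They were chosen by name from the 30477 genes with a deposited FPKM value. The names of 8 were found directly, and FOLR2 was found through its gene identifier, ENSSSCG00000014812, because its row carries no symbol. The 3 pigs of the NC group ate normal chow and the 3 pigs of the HFCF group ate a diet high in fat, cholesterol and fructose, in both cases for 6 months. All were male, and the sample labels give an age of 3 to 4 months, while the methods give an older age at purchase. Each pig gave 1 library from bulk abdominal aorta, so a cell type with fewer cells and one with less RNA per cell cannot be told apart in any value below.

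Macrophages of the healthy artery wall sit mainly in the adventitia, renew themselves largely by local division and clear dying cells, hemoglobin and hyaluronan. LYVE1, FOLR2, CD163 and MRC1 are widely used to recognise them, and TIMD4 marks the longest-lived resident macrophages of several tissues. In atherosclerosis, monocytes from the blood enter the intima and become macrophages and foam cells, which share with resident cells the general lineage genes CSF1R, the receptor for colony-stimulating factor 1, and AIF1, which encodes the actin-binding protein IBA1. AIF1 is thus a general gene of the lineage as well as one of the 9. The question was whether the resident-type genes rose with the HFCF diet as much as CSF1R and AIF1 did.

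Depth and tissue were checked first. Relative depth was read as the commonest ratio of low FPKM values between the first NC pig and each library. It ran from 1 to 1.37 over the NC pigs and from 1.03 to 1.07 over the HFCF pigs. Summed FPKM lay between 272207 and 287141 in the NC pigs and between 330222 and 338690 in the HFCF pigs. Smooth muscle markers identified the tissue, with ACTA2 at 3359 FPKM or more in every library. The first HFCF pig stood apart in blood genes, where hemoglobin HBB reached 2846 FPKM, compared with 84.7 and 93.9 in the other HFCF pigs and 21.3 to 174.5 in the NC pigs. The third NC pig stood apart in fat genes, with ADIPOQ at 1.22 FPKM against 39.1 and 59.9 in the other NC pigs and 0.301 to 4.08 in the HFCF pigs. The part of blood and fat in the results below was not tested.

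Of the 9 genes, 6 rose with the diet (AIF1, VSIG4, TIMD4, CD163, MRC1 and STAB1), and LYVE1, FOLR2 and MERTK did not pass the test. Values were compared as log2(FPKM + 0.1) with limma over the 15384 genes with a mean of at least 0.1 FPKM, and a gene was called at a Benjamini-Hochberg adjusted p under 0.05. Among all tested genes 22.8% were called higher and 6.16% lower, so that 78.7% of the calls were higher. That share depended on the scaling, being 50.7% with median-ratio size factors, 49.5% when the libraries were quantile normalized and 58.2% on the TPM scale, and 5 of the 9 genes were called higher under each of these 3 scalings. In the 6 genes that rose, each HFCF value lay above each NC value, as it did in 36.1% of all tested genes (12.1% were apart in the opposite direction). None of the 9 was lower by limma, either after adjustment or at an unadjusted p under 0.05. All 9 entered the test, but TIMD4 did so only through its HFCF values. Their median log2 fold change was 1.31, beside 0.32 for all tested genes, a median that became -0.0097 with median-ratio size factors. Relative to the 0.32 of all genes, the log2 fold change was 4.81 for AIF1, 3.73 for VSIG4, 3.01 for TIMD4, 2.65 for CD163, 0.99 for MRC1, 0.93 for STAB1, 0.16 for LYVE1, -0.51 for FOLR2 and -0.56 for MERTK.

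**Figure D1:**
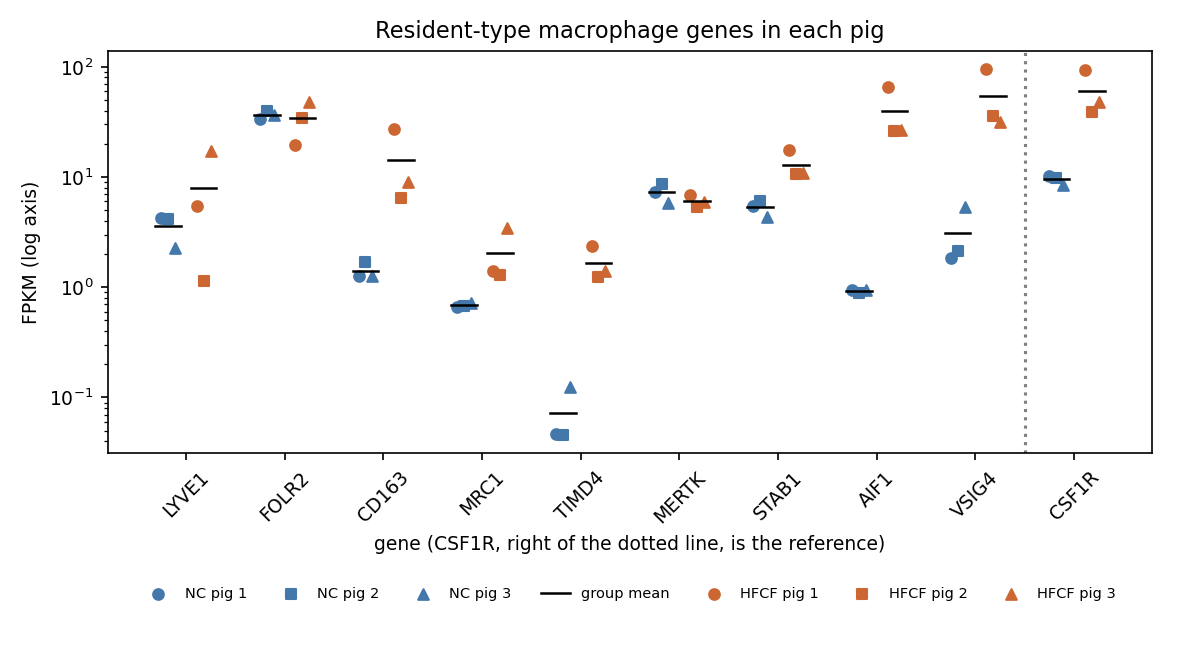
FPKM of the 9 resident-type genes and of CSF1R on a log axis, 1 point per pig, NC in blue and HFCF in orange, with the group mean as a bar. AIF1, VSIG4, TIMD4, CD163, STAB1, MRC1 and CSF1R show no overlap between groups, whereas LYVE1, FOLR2 and MERTK do overlap.

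AIF1 changed most. It was at 0.948, 0.886 and 0.943 FPKM in the NC pigs and at 66.0, 26.1 and 26.7 FPKM in the HFCF pigs. The NC pigs were nearly equal, and the lowest HFCF pig stood far above all of them. The group means were 0.926 ± 0.0347 and 39.6 ± 22.9 FPKM (SD, n = 3 each), a ratio of 42.8, and the log2 fold change was 5.13 (SE, the standard error, 0.36, adjusted p = 0.000555, limma).

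CSF1R, the reference of the lineage, started from a higher level and rose less. Its values were 10.2, 9.81 and 8.46 FPKM in the NC pigs, compared with 93.9, 39.0 and 48.4 FPKM in the HFCF pigs, with no overlap. The ratio of means was 6.36 and the log2 fold change 2.56 (SE 0.32, adjusted p = 0.00257, limma). The log2 fold change of AIF1 exceeded that of CSF1R by 2.58 (95% interval 1.56 to 3.59), and the call was kept without any single library. The 2 genes named as yardsticks therefore differed from each other, and each resident-type gene is set against both. CD68, a lysosomal membrane protein of macrophages, had a log2 fold change of 4.99, which differed from that of AIF1 by -0.14 (95% interval -1.25 to 0.96).

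VSIG4 encodes a receptor for complement C3b on resident macrophages. It was at 1.85, 2.15 and 5.36 FPKM in the NC pigs and at 95.4, 35.7 and 31.5 FPKM in the HFCF pigs. The third NC pig was the highest of its group, and the groups did not overlap. The group means were 3.12 ± 1.94 and 54.2 ± 35.7 FPKM (SD, n = 3 per group), with a log2 fold change of 4.05 (SE 0.53, adjusted p = 0.00306 by limma). It was the most abundant of the 9 genes in the HFCF group.

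The 2 receptors for dying cells parted from each other. TIMD4, which binds phosphatidylserine on apoptotic cells, was close to the lower limit of the data in the NC pigs, at 0.0466, 0.0456 and 0.124 FPKM. In the HFCF pigs it was at 2.35, 1.23 and 1.41 FPKM, above every NC pig but still the least abundant of the 9 in both groups. Its log2 fold change was 3.33 (SE 0.37, adjusted p = 0.00193, limma) and moved between 1.29 and 4.42 with the choice of pseudocount and the other alternatives, since the NC values lie near the 0.1 added before the logarithm. MERTK, a receptor tyrosine kinase that engulfs apoptotic cells through the bridging proteins GAS6 and PROS1, was at 7.28, 8.64 and 5.81 FPKM in the NC pigs, compared with 6.92, 5.33 and 5.99 FPKM in the HFCF pigs. The groups overlapped, with the lowest value in an HFCF pig and the highest in an NC pig. The log2 fold change was -0.24 (95% interval -0.72 to 0.24, adjusted p = 0.411, limma), an interval that leaves out the change of CSF1R.

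The scavenger receptors CD163, STAB1 and MRC1 were higher throughout the HFCF group than in the NC group, by unequal amounts. CD163, which takes up hemoglobin bound to haptoglobin, was at 1.26, 1.70 and 1.27 FPKM in the NC pigs and at 27.3, 6.47 and 8.94 FPKM in the HFCF pigs. The first HFCF pig, which also had the most HBB, stood above the other 2 HFCF pigs. The log2 fold change of CD163 was 2.97 (SE 0.50, adjusted p = 0.00693, limma), and 2.37 without the first HFCF pig, where it still passed. STAB1, or stabilin-1, a receptor for modified lipoproteins and matrix fragments that endothelium of some beds also carries, was at 5.46, 6.06 and 4.37 FPKM in the NC pigs and at 17.4, 10.6 and 10.9 FPKM in the HFCF pigs. The ratio of its means was 2.45 and the log2 fold change 1.25 (SE 0.24, adjusted p = 0.011, limma). With each gene's own spread in place of the shared one, CD163 and STAB1 just missed the threshold, with adjusted p-values of 0.0502 and 0.0507 from the limma fit without moderation. MRC1, the mannose receptor CD206, was at 0.666, 0.671 and 0.720 FPKM in the NC pigs and at 1.41, 1.29 and 3.44 FPKM in the HFCF pigs. The third HFCF pig was the highest here. The log2 fold change of MRC1 was 1.31 (SE 0.39, adjusted p = 0.0439, limma), and the call was lost in 12 of 16 alternatives. Among them were the replicate block, where MRC1 had an adjusted p of 0.0671, and the fits without any one NC pig, without the first HFCF pig and without the third HFCF pig, where limma gave an adjusted p between 0.0525 and 0.119.

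LYVE1 and FOLR2, with MRC1 the genes most often used for adventitial macrophages, did not pass the test. LYVE1, a receptor for hyaluronan, was at 4.22, 4.19 and 2.28 FPKM in the NC pigs. In the HFCF pigs it was at 5.48, 1.14 and 17.1 FPKM, so that this group held both the lowest and the highest of the 6 values. The HFCF values differed 15.0-fold among themselves, the widest spread of the 9 genes, against 1.85-fold in the NC pigs. The log2 fold change was 0.48 (95% interval -1.57 to 2.52, adjusted p = 0.709, limma), an interval too wide to place LYVE1, and it was -0.43 without the third HFCF pig and 1.47 without the second. FOLR2, the folate receptor beta, was the most abundant of the 9 in the NC pigs, at 33.4, 39.8 and 36.2 FPKM, and was at 19.4, 34.3 and 48.3 FPKM in the HFCF pigs. The HFCF values lay on both sides of the NC values. The log2 fold change was -0.19 (95% interval -0.94 to 0.55, adjusted p = 0.677, limma) and 0.16 without the first HFCF pig.

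FOLR2 has a close relative in these data. The row named FOLR1, which the deposited description calls folate receptor gamma, was at 19.6, 21.5 and 13.9 FPKM in the NC pigs and at 296.1, 113.6 and 94.8 FPKM in the HFCF pigs. Its log2 fold change was 3.02 (limma, adjusted p = 0.00383), and it was singled out after its values had been seen. How the counting divided reads between these similar genes is not given in the sources used here, so the level of FOLR2 is uncertain to that extent.

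**Figure D2:**
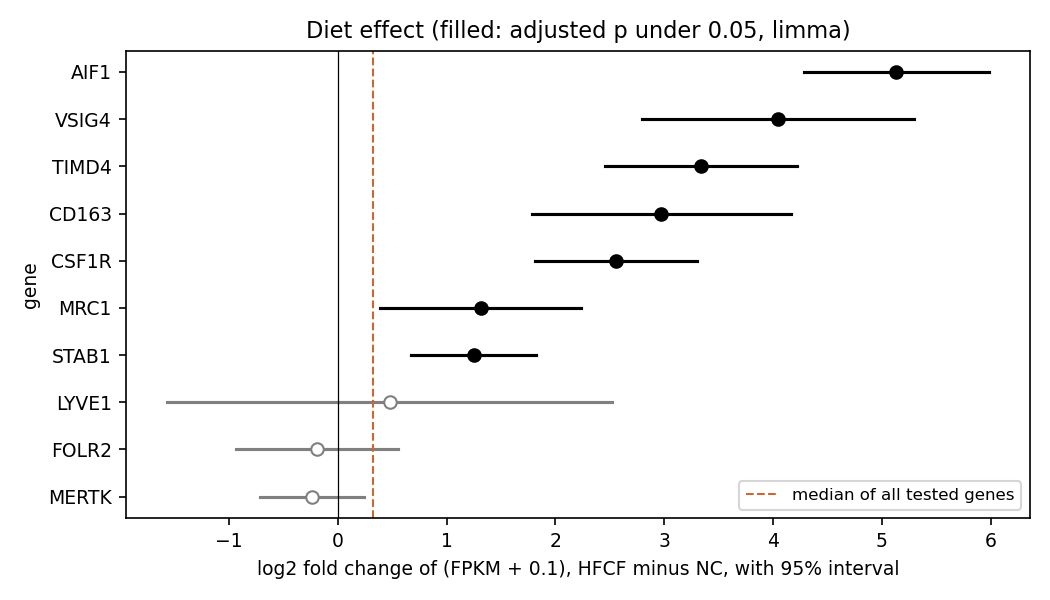
Log2 fold change of FPKM + 0.1, HFCF minus NC, for the 9 genes and CSF1R with 95% intervals from limma, where filled points had an adjusted p under 0.05 and the dashed line is the median of all tested genes. The genes run from MERTK at -0.24 to AIF1 at 5.13, and the interval of LYVE1 is the widest.

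The order of the levels, which FPKM allows to be compared between genes because it is per length, differed between the groups. In the NC group the mean FPKM fell from FOLR2 (36.4) through MERTK (7.24), STAB1 (5.30), LYVE1 (3.56), VSIG4 (3.12), CD163 (1.41), AIF1 (0.926) and MRC1 (0.686) to TIMD4 (0.0722). Of these neighbours, MERTK and STAB1 overlapped in their values over the 3 pigs, and so did LYVE1 and VSIG4. In the HFCF group the order was VSIG4 (54.2), AIF1 (39.6), FOLR2 (34.0), CD163 (14.2), STAB1 (13), LYVE1 (7.91), MERTK (6.08), MRC1 (2.05) and TIMD4 (1.66), and every pair of neighbours other than MERTK and MRC1 overlapped. FOLR2 made up between 60.6% and 63.4% of the summed FPKM of the 9 genes in the NC pigs, and 8.02%, 28.1% and 31.3% of it in the HFCF pigs. VSIG4 and AIF1 made up 3.35% to 9.39% and 1.38% to 1.72% in the NC pigs, and 20.4% to 39.5% and 17.3% to 27.3% in the HFCF pigs.

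Set against CSF1R in the same library, the genes fell into 3 classes. AIF1 and VSIG4 rose more than CSF1R, CD163 and TIMD4 did not differ from it by the test, and LYVE1, FOLR2, MRC1, MERTK and STAB1 changed less. For this comparison the log2 value of CSF1R was subtracted from that of every gene in each library, and the same model was fitted to the differences. The spread was then almost wholly shared between genes, so the intervals and p-values against CSF1R or AIF1 can be too precise. Among all tested genes 87.1% changed less than CSF1R and 1.09% more, beside which 5 of 9 is no excess.

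FOLR2 showed the fall relative to CSF1R most plainly in levels. Its FPKM was 327.0%, 405.5% and 427.4% of that of CSF1R in the NC pigs, against 20.6%, 88.0% and 99.8% in the HFCF pigs, a log2 difference of -2.75 (95% interval -3.80 to -1.70), or -2.02 without the first HFCF pig. MERTK went from between 68.6% and 88.0% of CSF1R in the NC pigs to between 7.38% and 13.7% in the HFCF pigs, a log2 difference of -2.79 (95% interval -3.82 to -1.77). The groups did not overlap in either gene, and both kept the call in all 18 alternatives, which include CD68 and the mean of 11 lineage genes as the reference. Among all tested genes 99.1% changed less than CD68 and 0.0845% more, and the shares against the mean of the lineage genes were 95.8% and 0.293%.

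STAB1 stood between 51.7% and 61.7% of CSF1R in the NC pigs and between 18.6% and 27.1% in the HFCF pigs, a log2 difference of -1.31 (95% interval -2.33 to -0.29). Its call was lost without the first NC, the second NC or the third HFCF pig, where the adjusted p of STAB1 lay between 0.0513 and 0.0799 (limma). LYVE1 was at 41.4%, 42.7% and 26.9% of CSF1R in the NC pigs and at 5.84%, 2.92% and 35.4% in the HFCF pigs, so the groups overlapped through the third HFCF pig. The log2 difference of LYVE1 was -2.08 (95% interval -3.15 to -1.01), and lay between -1.35 without the second HFCF pig and -3.09 without the third. That interval rests on a spread shared between genes, with an SE of 0.54, where the SE of the diet effect on LYVE1 was 0.87. It is therefore likely too narrow for LYVE1. The call was lost without the first HFCF pig, with an adjusted p of 0.066 (limma). It was also lost with the gene's own spread, with an adjusted p of 0.137 (limma fit without moderation). MRC1 was at 6.53% to 8.51% of CSF1R in the NC pigs and at 1.50%, 3.31% and 7.12% in the HFCF pigs, where the third HFCF pig lay among the NC pigs. The log2 difference of MRC1 was -1.24 (95% interval -2.33 to -0.16). MRC1 lost that call in 7 of 18 alternatives, among them the fits without the first HFCF pig and without any one NC pig.

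**Figure D3:**
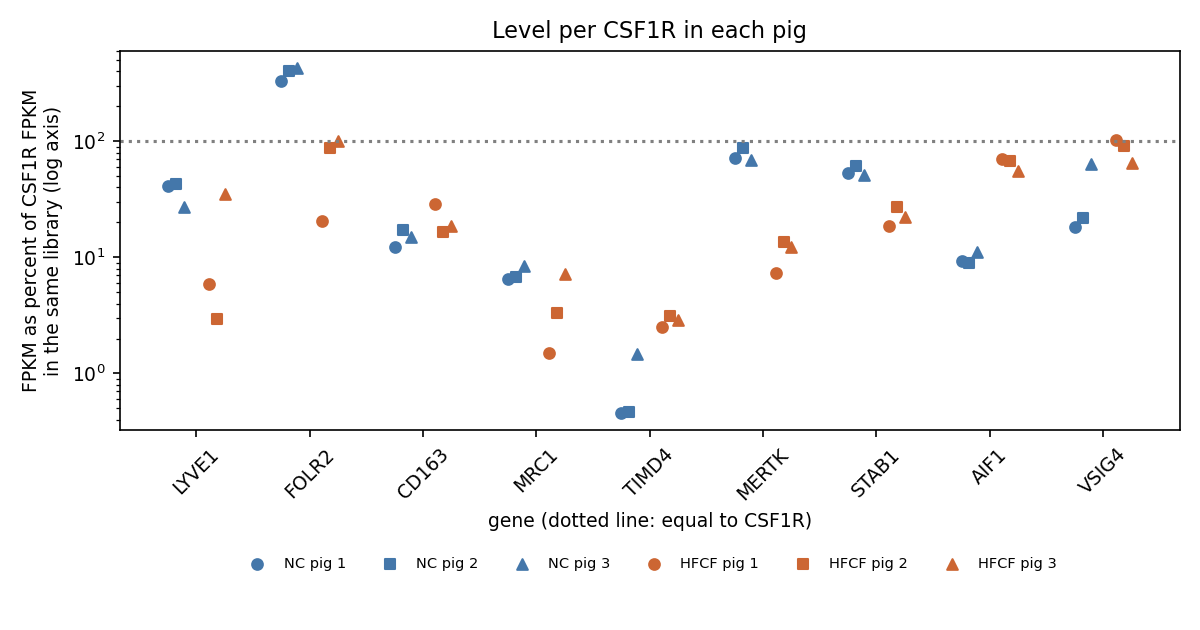
FPKM of each of the 9 genes as a percent of the FPKM of CSF1R in the same library, on a log axis, 1 point per pig. FOLR2, MERTK and STAB1 sit lower in the HFCF group without overlap, AIF1, VSIG4 and TIMD4 sit higher without overlap, and the groups overlap for LYVE1, CD163 and MRC1.

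CD163 kept close to CSF1R, at 12.4%, 17.3% and 15.0% of it in the NC pigs, against 29.0%, 16.6% and 18.5% in the HFCF pigs. The log2 difference was 0.42 (95% interval -0.60 to 1.44, adjusted p = 0.433, limma). TIMD4 was at 0.457%, 0.465% and 1.47% of CSF1R in the NC pigs, against 2.50%, 3.15% and 2.91% in the HFCF pigs. The groups of TIMD4 did not overlap in these percentages, but its log2 difference of 0.78 (95% interval -0.39 to 1.94) became -1.16 with a pseudocount of 1 and 1.85 with one of 0.01, and was called in both. VSIG4 rose from between 18.2% and 63.3% of CSF1R to between 65.1% and 101.6%, a log2 difference of 1.49 (95% interval 0.46 to 2.52). VSIG4 lost that call without the first or the second NC pig, with adjusted p-values of 0.0959 and 0.0711 (limma). AIF1 rose from between 9.02% and 11.1% of CSF1R to between 55.3% and 70.3%.

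Set against AIF1, 7 of the other 8 genes changed less, where 99.2% of all tested genes did so and 0.078% changed more. The exception was VSIG4, whose log2 difference was -1.09 (95% interval -2.19 to 0.02, adjusted p = 0.054, limma). It was 117.7% to 144.5% of AIF1 in the HFCF pigs and 195.4% to 568.1% in the NC pigs, and its adjusted p was 0.0403 without the first HFCF pig. The log2 difference from AIF1 was -1.80 for TIMD4, -2.16 for CD163, -3.82 for MRC1, -3.89 for STAB1, -4.66 for LYVE1, -5.33 for FOLR2 and -5.37 for MERTK. TIMD4 lost that call with a pseudocount of 0.01 (-0.84, adjusted p = 0.262, limma) and on the TPM scale (-1.12, adjusted p = 0.0975, limma). Without the first HFCF pig the difference was -4.53 for FOLR2 and -3.19 for MRC1, it was -4.46 for MRC1 without the third, and for LYVE1 it was -3.89 without the second HFCF pig and -5.77 without the third. The differences share the values of 1 reference gene. With each gene's own spread in place of the shared estimate, 3 genes changed less than CSF1R (FOLR2, MERTK and STAB1), 1 changed more (AIF1), and 7 still changed less than AIF1.

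**Figure D4:**
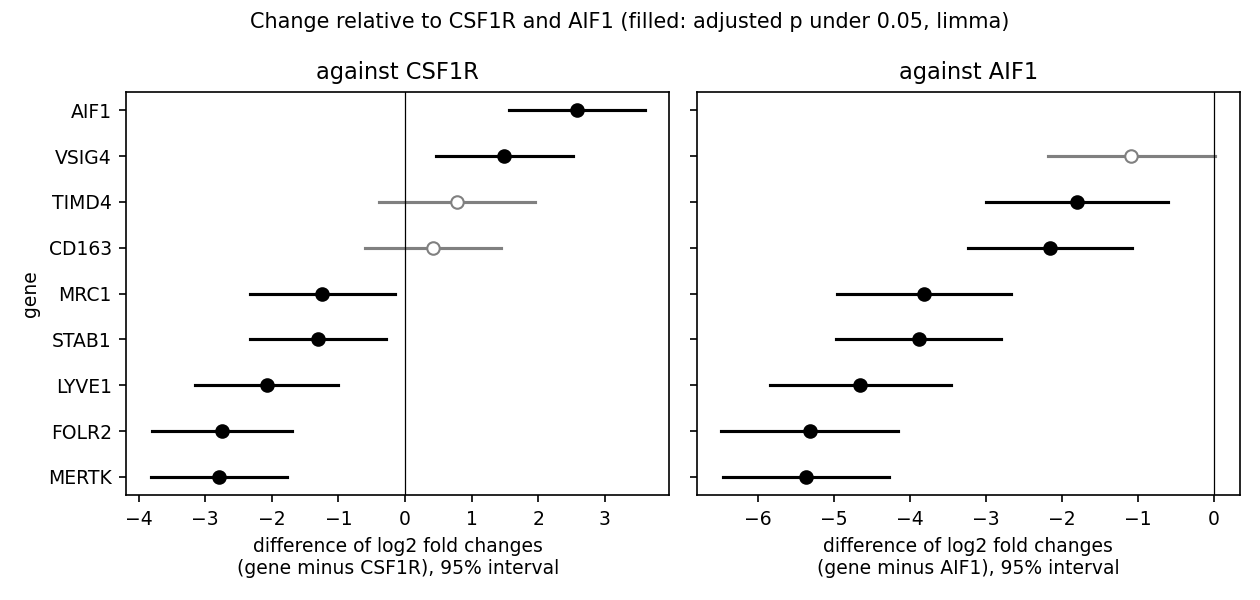
Difference between the log2 fold change of each gene and that of CSF1R (left) or AIF1 (right), with 95% intervals from limma, where filled points had an adjusted p under 0.05. Left of 0 lie LYVE1, FOLR2, MRC1, MERTK and STAB1 against CSF1R, and all 8 genes against AIF1, of which VSIG4 has an interval that reaches 0.

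The HFCF pigs also split the genes by which pig was highest. The first HFCF pig had the highest value of its group for 6 of the 9 genes (AIF1, VSIG4, TIMD4, CD163, STAB1 and MERTK) and for CSF1R. The third HFCF pig had the highest LYVE1, FOLR2 and MRC1. Replicate numbers have no order, and with 3 pigs this is a description.

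Some markers of other cells had the same highest or lowest HFCF pig as LYVE1, FOLR2 and MRC1. LYVE1 is also a classical gene of lymphatic endothelium, and in the second HFCF pig, where LYVE1 was lowest, MMRN1 was at 0.0869 FPKM against 3.90 and 3.31 in the other HFCF pigs and FLT4 was at 1.29 against 4.38 and 3.60. PROX1, the defining factor of lymphatic endothelium, was at 0.0136, 0 and 0.0352 FPKM in the NC pigs, compared with 1.65, 0.0284 and 0.103 in the HFCF pigs. Of the 7 lymphatic markers 1 rose (CCL21, log2 fold change 1.63), beside 22.8% of all tested genes. FLT4 had the lowest log2 fold change of 0.06 and PROX1 the highest of 1.63, but PROX1 entered the test only through its HFCF values. The count of lymphatic markers called higher was 0 without the first NC pig and 3 without the second HFCF pig. Their summed level ran from 60.7 to 66.9 FPKM in the NC pigs and from 104.4 to 311.9 in the HFCF pigs. In the third HFCF pig the fibroblast genes DCN and PI16 were at 753.0 and 151.8 FPKM against 332.8 to 387.3 and 51.2 to 55.1 in the other HFCF pigs. PDGFRA and COL1A1 were also highest in that pig, at 12.4 and 1743 FPKM, but LUM and DPT were lowest in it, at 154.0 and 11.3 FPKM against 174.5 to 200.2 and 13.7 to 19.2. Of the 6 fibroblast markers 1 rose, LUM with a log2 fold change of 1.96, again beside 22.8% of all tested genes, and PI16 had the lowest at -0.49. Without the third HFCF pig 1 fibroblast gene was called lower, and the sum over all pigs ran from 1251 to 2684 FPKM in the NC pigs and from 1626 to 2826 in the HFCF pigs. The part of lymphatic endothelium and fibroblasts in the values of LYVE1, FOLR2 and MRC1 was not tested.

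**Figure D5:**
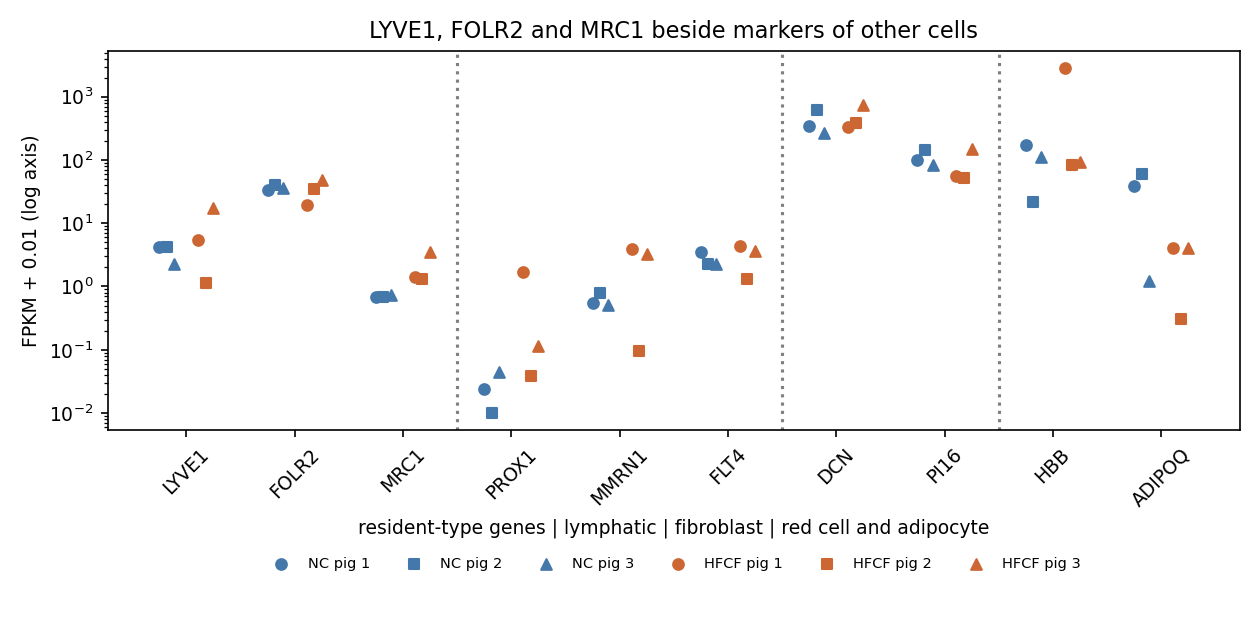
FPKM + 0.01 on a log axis, 1 point per pig, for LYVE1, FOLR2 and MRC1 beside lymphatic (PROX1, MMRN1, FLT4), fibroblast (DCN, PI16), red cell (HBB) and adipocyte (ADIPOQ) genes. The second HFCF pig is lowest of its group in LYVE1 and in all 3 lymphatic genes, and the third is highest in LYVE1, FOLR2, MRC1, DCN and PI16.

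Other cell types of the wall behaved unevenly. Of 7 tested genes of blood endothelium none was called by limma and 2 had an unadjusted p under 0.05, with log2 fold changes from -0.77 for CLDN5 to 1.18 for TEK, and their sums overlapped between groups (109.1 to 226.5 FPKM in NC and 96.2 to 256.4 in HFCF). Without the third HFCF pig 1 endothelial gene was called higher. Of 8 smooth muscle genes 6 fell, where 6.16% of all tested genes were called lower. MYOCD was the lowest at -2.72, while TAGLN at -0.60 was the highest and did not pass. Without the first NC pig 2 of the 8 were called, and their sums were 15914 to 22729 FPKM in the NC pigs and 7997 to 12892 in the HFCF pigs. None of the 5 adipocyte genes or the 3 tested red cell genes was called by limma, nor had any an unadjusted p under 0.05, but without the third NC pig 3 adipocyte genes were called lower, and without the third HFCF pig 1 red cell gene was called higher. The adipocyte genes ran from ADIPOQ at -2.94 to CIDEC at -0.48, and the red cell genes from ALAS2 at 1.03 to AHSP at 2.84. AHSP entered the test only through its HFCF values, which were 13.8, 0.845 and 0 FPKM. Adipocyte sums were 3.83 to 122.6 FPKM in the NC pigs and 5.58 to 17.7 in the HFCF pigs, and red cell sums were 22.0 to 178.8 FPKM in the NC pigs and 86.5 to 2897.

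Further resident-type genes, from a list of 25 of which 19 could be tested, were as divided as the 9. Of the 19, 11 rose and 8 did not pass, where 22.8% of all tested genes were called higher. The median log2 fold change was 1.68. IL10, which rose, and MARCO and CD163L1, which did not pass, entered the test only through their HFCF values. PLTP, a phospholipid transfer protein, had the highest at 4.74, and the complement genes C1QA, C1QB and C1QC rose by 3.96 to 4.71. MAF, a transcription factor of resident macrophages, rose by 2.53 from between 0.624 and 0.998 to between 3.39 and 7.63 FPKM. SIGLEC1, a sialic acid receptor, rose by 2.83. ID3, a regulator of transcription, had the lowest at -1.01 and did not pass (1 gene of the list was called lower under each of the 3 scalings and without the third NC pig). It was at 686.8 to 1595 FPKM in the NC pigs, where CSF1R was at 8.46 to 10.2. The part of other cells of the wall in the values of this list was not tested. CD209, a lectin singled out after its values were seen, was at 3.97, 8.84 and 1.58 FPKM in the NC pigs, compared with 5.93, 3.31 and 18.5 in the HFCF pigs, highest in the third HFCF pig and lowest in the second among the HFCF pigs, as LYVE1 was. F13A1, a clotting factor subunit of macrophages, reached 18.2 FPKM in the first HFCF pig, while the others had 2.78 and 2.38, and an adjusted p of 0.114 (limma).

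Of 13 tested ligands and partners of the 9 receptors 3 rose and 1 fell, with a median log2 fold change of 0.46, where 22.8% of all tested genes were called higher and 6.16% lower. These counts are close to the shares over all genes. C3, whose fragments VSIG4 binds, had the highest log2 fold change at 2.92 and was at 29.5, 132.4 and 70.1 FPKM in the NC pigs, compared with 1088, 350.8 and 312.0 FPKM in the HFCF pigs. PROS1, a ligand of MERTK, rose by 0.74 from between 8.85 and 9.64 to between 15.1 and 15.6 FPKM, and TNFSF12, a cytokine that CD163 can bind, rose by 0.86. GAS6, the other ligand of MERTK, was at 151.1 to 202.8 FPKM in the NC pigs and 100.7 to 189.8 in the HFCF pigs and did not pass. AXL, a kinase related to MERTK, was the lowest at -0.47, from between 65.7 and 81.9 to between 49.0 and 55.8 FPKM (adjusted p = 0.0438, limma), a call lost in 10 of 16 alternatives, among them the fit without any one library. Neither ligand of CSF1R was called by limma, and 1 of them had an unadjusted p under 0.05. CSF1 had a log2 fold change of 0.79 and IL34 of -0.04, and 1 of them was called without the third HFCF pig.

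The general macrophage genes rose together. All 11 tested genes of this list, CSF1R among them, were called higher, from CD14 at 1.71 to CD68 at 4.99, with a median of 3.73, and their sum was 84.9 to 86.5 FPKM in the NC pigs and 580.8 to 1519 in the HFCF pigs. Against their mean the log2 difference of VSIG4 was 0.45, of TIMD4 -0.26 and of CD163 -0.62, none of which passed, whereas that of AIF1 was 1.54 and passed. Of 12 foam cell genes 7 rose, led by ACP5 at 7.12, and FABP4 was lowest at -0.17 and did not pass. Of 9 tested genes of recruited monocytes 5 rose (among them the row named CCR2, whose identifier carries another name in a later table), and CCL2 was lowest at 1.10 and did not pass. The count of recruited monocyte genes was 3 without the first NC or without the second HFCF pig. S100A8 was listed at 0 in the 3 NC pigs and was at 11.2, 0.219 and 0 FPKM in the HFCF pigs. Over all tested genes 22.8% were called higher, the share to set beside the counts of the general macrophage, foam cell and recruited monocyte lists. The median of the 9 resident-type genes lay below those of the 3 lists, which share the same libraries.

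Markers of other leukocytes were uneven in level, with CD79A at 34.1 to 38.0 FPKM in the HFCF pigs and CSF3R at 55.9 FPKM in the first of them. Among dendritic cell genes 2 of 5 rose (BATF3 was highest at 3.08, CCR7 lowest at 0.64), among T cell genes 2 of 5 (TRAT1 2.43, CD3G 0.42), among B cell genes 1 of 5 (CD79A, at 2.14) and among neutrophil genes 1 of 3 (CSF3R 5.29, ELANE 0.03). The share called higher over all tested genes was 22.8%, and lists this short cannot be told apart from it by their counts. TRAT1, like the uncalled CCR7, FLT3, MS4A1 and CXCR2, had an NC mean under 0.1 FPKM and entered the test only through its HFCF values. These counts changed with single libraries. The dendritic cell count was 1 without any one library other than the second HFCF pig, the T cell count was 0 without the first NC pig and 1 without the second or the third, and the B cell count was 2 without the third HFCF pig. The summed levels were 0.971 to 2.10 FPKM in the NC pigs and 4.87 to 15.4 in the HFCF pigs for dendritic cells, and 0.484 to 0.732 and 2.27 to 9.62 for T cells. They were 6.74 to 11.2 and 35.6 to 48.6 FPKM for B cells, and 1.05 to 1.57 and 5.77 to 62.2 for neutrophils.

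The genes whose pattern over the 6 libraries lay nearest to each gene that rose were found by the root mean square difference of the centred log2 values, among 9585 genes with a symbol and a mean of at least 1 FPKM. Nearest to AIF1 were CD68 (0.21), SLC27A6 (0.30) and EVI2B (0.30), where SLC27A6 is a fatty acid transporter and EVI2B a leukocyte membrane protein. Nearest to VSIG4 were LCP1 (0.25), the actin-bundling plastin of leukocytes, TNFSF13B (0.26), the B cell factor BAFF, and ARHGAP30 (0.27). Nearest to CD163 were RAC2 (0.18), a small GTPase of blood cells, ARHGAP9 (0.21) and the cation channel TRPV2 (0.22). Nearest to TIMD4 were TAGAP (0.17), the inflammasome sensor NLRP3 (0.17) and the kinase RPS6KA1 (0.19). STAB1 and MRC1 lay near other genes. For STAB1 these were the repressor ZBTB18 (0.10), the actin regulator EVL (0.10) and CMTM3 (0.10). For MRC1 they were the kinesin KIF3B (0.14), the antiviral protein IFITM3 (0.19) and the helicase DDX46 (0.21). Of the 9 genes themselves, CD163 was the nearest to CSF1R (0.35), followed by TIMD4 (0.50), while FOLR2 (1.56), LYVE1 (1.49) and MERTK (1.43) were the farthest.

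The deposited GO annotation links some of the 9 in ways the choice did not use. Endocytosis was assigned to CD163, MRC1 and STAB1, 3 of the 156 genes that carry the term. These 3 were called higher, as were 22.8% of all tested genes, and the other genes of the term were not counted. The call of MRC1 was lost in 12 of 16 alternatives, and with each gene's own spread none of the 3 was called. Cell adhesion was assigned to LYVE1, FOLR2 and STAB1, of which STAB1 rose, and binding of hyaluronic acid to LYVE1 and STAB1, 2 of 20 genes.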

How the data were processed

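Total RNA of the abdominal aorta of 3 NC and 3 HFCF pigs was sequenced as paired-end reads. The authors trimmed reads with cutadapt 1.9 and checked them with FastQC (submitters' processing notes), used HISAT2 for alignment to the pig genome and StringTie for assembly, and the FPKM per gene that resulted is what they deposited. FPKM divides by exon length and library size, so each value is a share of its own library. The methods name an earlier genome build than the gene tables used for names, and no coordinates are printed. Read counts were not used here. Each p-value sets a difference between the diet groups against the spread between pigs within a group. Except in the fit with each gene's own spread, that spread was an estimate shared between genes. It was partly shared in the diet fit and almost wholly shared in the fits against a reference gene. There the values of 1 reference gene enter every difference, but the fit treats the differences as independent. The intervals and p-values against a reference can therefore be too precise. Against CSF1R the SE was similar for LYVE1 (0.54) and MERTK (0.52), whereas their diet effects had SEs of 0.87 and 0.20.

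A value of 0.0001 FPKM was read as 0. Values were tested as log2(FPKM + 0.1), which understates changes of low genes, for genes with a mean of at least 0.1 FPKM, with limma 3.58.1 in R 4.3.3 (a model with diet alone, moderated variances with a trend on mean level, Benjamini-Hochberg over all tested genes). Changes against CSF1R and AIF1 were fitted to within-library differences of log2 values. The smallest two-sided p that exact permutation could give at this size is 0.1. The diet fit and the fit against a reference gene were run on simulated data, and the other steps were not. The outcomes of the simulation are not reported here. Its genes were drawn independently of each other, so variation that the genes of a library share was not covered.

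The 9 genes, the reference genes and the comparison lists were chosen with earlier results of these data known. Genes not found by name were matched by gene identifier or NCBI gene number. Named were the 9 genes, CSF1R, the highest and lowest log2 fold change of each list, and the 3 nearest profiles of each gene that rose. Some single-gene values that this rule names are not reported here. Alternatives covered the pseudocount, the filter, 3 scalings, the variance model, a replicate block, each library left out and other reference genes. A fit with each gene's own spread was added after the data were seen.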

Additional observations from a re-analysis of the deposited data

How the results depend on the processing

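The number of the 9 genes called higher was 6 and lay between 5 and 6 in 15 of 16 alternatives, and 0 were called lower in all 16. With each gene's own spread, a fit chosen after seeing the data, 3 were called higher (AIF1, VSIG4 and TIMD4), 3 changed less than CSF1R and 1 changed more. With each library left out in turn the number called higher lay between 5 and 6, the number that changed less than CSF1R between 3 and 5 (3 without the first NC, the second NC or the first HFCF pig), the number that changed more between 1 and 2 (1 without the first or the second NC pig), and the number that changed less than AIF1 between 7 and 8. With CD68 as the reference 0 genes changed more, and with the mean of the macrophage list 1 did. Directions that turned were those of LYVE1 (-0.43 to 1.47 with a library left out, lowest without the third HFCF pig), FOLR2 (-0.49 to 0.16, highest without the first HFCF pig), CD163 against CSF1R (-0.035 with a pseudocount of 1) and TIMD4 against CSF1R (-1.16 with a pseudocount of 1). Against CD68 the log2 differences of CD163, TIMD4 and VSIG4 were -2.01, -1.66 and -0.94, and against the macrophage list those of CD163 and TIMD4 were -0.62 and -0.26. Each of these differences is the log2 fold change of the gene minus that of the reference, which was 4.99 for CD68. Apart from these and the turn of TIMD4 with the pseudocount, described above, the cause was not tested.

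Over all genes 3505 were called higher and 948 lower. They were 2035 and 1982 with median-ratio scaling, 1748 and 1782 with quantile normalization, 2146 and 1539 on the TPM scale, 2232 and 540 with the replicate block, 2331 and 577 with each gene's own spread, and 1979 to 2815 and 442 to 786 without 1 library. Same-numbered pigs showed no common deviation (correlations of 0.02, -0.08 and -0.07 between their deviations from the group means). With 3 pigs per group these values cannot exclude a pairing of the samples. The block moved the count of the 9 genes called higher to 5, through MRC1 (1.31, adjusted p = 0.0671, limma). The depth behind single FPKM values is known only as a ratio between libraries, which limits TIMD4 in the NC pigs most.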
